A study of Mus musculus with 2 samples.

Results

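Late-numbered miRNA genes are taken here as the genes that GENCODE M21 names Mir followed by a number of 3000 or more. Mir3065 was left out, as were the late-numbered genes of the Dlk1-Dio3 region of chromosome 12 (5 genes) and of the Sfmbt2 gene (0 genes), both large miRNA clusters. Of the 553 such genes, 185 (33.5%) held at least 5 sense reads summed over both libraries and are described below. A further 99 genes held 1 to 4 reads and 269 held none. The whole table listed 2202 miRNA genes. The 185 genes were chosen by their summed reads in these libraries, so their number and levels are descriptions and carry no test.

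The libraries were small RNA libraries (size range under 30 bases, per the labels) of total RNA from a layer of the hippocampus of female B6CASTF1/J mice aged 36 days. The 2 libraries, biological replicates 1 and 2, form 1 group with no treatment or genotype contrast. B6CASTF1/J is the F1 hybrid of C57BL/6J and CAST/EiJ, so it carries 1 genome of each strain. The labels give different biosample entries but 1 donor entry, so the samples may not be separate animals, and differences between the libraries may be technical.

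MicroRNAs are short RNAs that guide Argonaute proteins to messenger RNAs, mainly through the seed at their 5′ end. Most are cut from long hairpins by Drosha in the nucleus and then by Dicer in the cytoplasm. Mirtrons instead take their hairpin from a short spliced intron, so that splicing replaces the Drosha cut. In tailed mirtrons only 1 hairpin end lies at a splice site, and the remaining intron tail is trimmed. The miRNA registry numbers its entries in order of submission, so high numbers belong to hairpins reported late, mostly from deep sequencing.

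Mature sequences were found in the RefSeq table (GRCm38.p6) for 172 of the 185 genes, 315 sequences in all. The 3′ arm sequences of the 5 most abundant genes are shown because these genes held most of the reads. Reads were counted per gene, so they do not tell which arm was sequenced. Capitals mark the seed, bases 2 to 8.
miR-7689-3p: uUAGAGCCagacugccuggguuu
miR-3099-3p: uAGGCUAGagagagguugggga
miR-3102-3p: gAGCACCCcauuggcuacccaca
miR-7080-3p: cAGGCUCAccccuccguucccu
miR-3475-3p: uCUGGAGGcacaugguuugaa

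Hairpins that fill a whole intron begin at the splice donor and end at the acceptor. Both arms of 2 such genes follow, to show the 5′ arms that start with GU, the letters that open most introns, and the 3′ arms rich in C and U.
miR-7080-5p: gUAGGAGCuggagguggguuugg
miR-7080-3p: cAGGCUCAccccuccguucccu
miR-6944-5p: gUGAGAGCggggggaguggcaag
miR-6944-3p: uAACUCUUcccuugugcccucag

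Hairpins whose 3′ end alone lies at the acceptor are the most numerous group. The 3′ arms of 4 of them were picked after their sequences were seen and show an ending in CAG, the letters that commonly close an intron.
miR-7044-3p: aUGCAGCCccgacccucacag
miR-7066-3p: uCUACCCAuugccugccucccag
miR-7004-3p: cCCACUCCcuccuucacgcag
miR-7055-3p: uUGCUACUuugauaccccaccag

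The 185 genes held 12578 of 2928141 assigned reads in replicate 1, which is 0.430% (exact Clopper-Pearson 95% interval 0.422 to 0.437). In replicate 2 they held 15133 of 3644157 reads, or 0.415% (0.409 to 0.422). The mean share was 0.422% ± 0.0101 (SD, n = 2). These intervals cover counting error only and treat each read as an independent draw. The reads carry no molecular identifiers, so copies of the same molecule cannot be told apart. Assigned reads were 30.5% and 34.7% of the reads in the tables, and the larger part of the rest had several places or no place. At this depth 1 read is worth 0.342 reads per 1000000 assigned reads (CPM) in replicate 1 and 0.274 CPM in replicate 2, and a count of 0 allows up to 1.02 and 0.823 CPM (3 reads). A read was seen in both libraries for 171 of the 185 genes, while 10 genes were at 0 in replicate 1 and 4 in replicate 2.

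Reads were concentrated on few genes. The first 5 genes held 69.9% of the 27711 reads and Mir7689 alone 25.1%. A mean of at least 100 CPM was reached by 5 genes, 26 lay from 10 to under 100 CPM and 154 lay under 10 CPM. The median was 2.47 CPM, against 107 CPM for the 278 of 478 earlier-numbered genes (Mir numbers below 3000, same regions left out) that reached the same minimum. Only Mir7689 ranked among the 100 most abundant of all genes.

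Mir7689 (chr5:36301570-36301628, plus strand, mm10) lies outside annotated genes on its strand and opposite Sorcs2, a gene for a sorting receptor of the VPS10 family. Replicate 1 held 3604 of its reads and replicate 2 held 3345, a mean of 1074 CPM ± 221 (SD, n = 2), and ranked 93 among all genes. It was the most abundant late-numbered gene in both libraries, and its level was higher in replicate 1.

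Mir3099 (chr7:6803587-6803670, plus strand) lies within an intron of Usp29, an imprinted ubiquitin protease gene. Its reads were 2120 and 2667, a mean of 728 CPM ± 5.55 (SD, n = 2). The 2 libraries gave nearly the same level. Its 84-base hairpin has a computed folding energy of -41.3 kcal/mol.

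Mir3102 (chr7:100882306-100882409, minus strand) spans an intron of Arhgef17, the gene for a guanine nucleotide exchange factor. It had 1803 and 2001 reads, 582 CPM ± 47.1 (SD, n = 2). RefSeq lists mature sequences for an outer and an inner pair of arms in its 104-base hairpin.

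Mir7080 (chr8:123130106-123130172, plus strand) spans an intron of Cpne7, a copine that binds phospholipids in the presence of calcium. It had 795 and 1258 reads, 308 CPM ± 52.1 (SD, n = 2). Mir3475 (chrX:140310948-140311012, plus strand), outside annotated genes, had 703 and 1078 reads, 268 CPM ± 39.4 (SD, n = 2). Both were higher in replicate 2.

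The following 7 genes lay between 40 and 90 CPM in the mean. Mir3059, in an intron of Mgat4c, had 218 and 369 reads (87.9 CPM ± 19.0, SD, n = 2). Mir6540, in an intron of Gap43, which encodes a growth cone protein of axons, had 163 and 341 reads (74.6 CPM ± 26.8). Mir3068, exonic in the noncoding gene Gm29362, had 202 and 205 reads (62.6 CPM ± 9.00).

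Mir6944 spans an intron of Dbn1, the gene for drebrin, an actin-binding protein of dendritic spines, and had 137 and 212 reads (52.5 CPM ± 8.05, SD, n = 2). Mir7047, at the acceptor end of an intron, had 141 and 198 reads (51.2 CPM ± 4.37). Mir7240, outside genes, had 119 and 203 reads (48.2 CPM ± 10.7). Mir8112, in an exon of Krcc1, had 99 and 188 reads (42.7 CPM ± 12.6) and shares a stretch of 20 bases with other annotated hairpins, so its reads are uncertain.

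**Figure D1:**
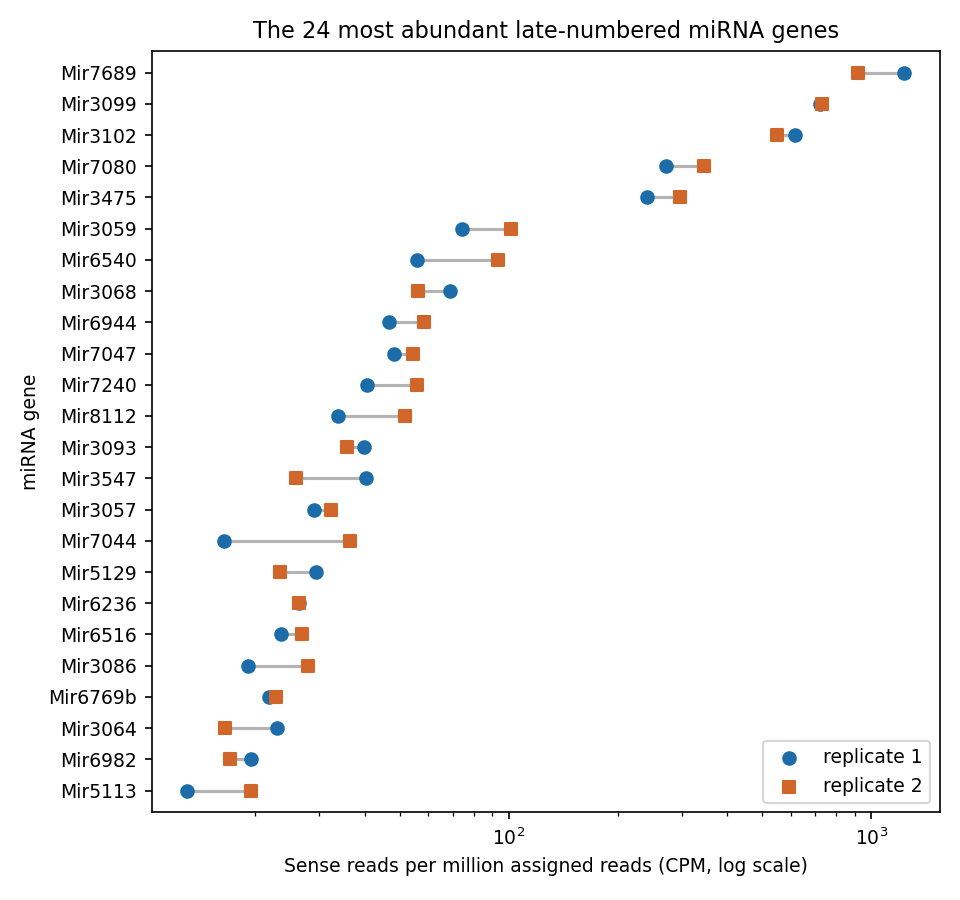
Level of the 24 most abundant late-numbered genes in each library (CPM, log axis), with circles for replicate 1, squares for replicate 2 and a line joining them. Mir7689, Mir3099, Mir3102, Mir7080 and Mir3475 stand above 100 CPM in both libraries.

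At the minimum itself, 18 genes had a summed count of 5 and 16 late-numbered genes had 4. Among those with 5 reads, Mir6933 and Mir7011 had 5 in replicate 1 and 0 in replicate 2, Mir6956 had 3 and 2, and Mir7008 and Mir3081 had 0 and 5. Among those with 4 reads, Mir5125 and Mir6925 had 2 in each library, Mir7648 had 4 and 0, and Mir5100 had 0 and 4. The genes on either side of the minimum differ by 1 read.

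The 3000s gave 37 of 83 genes (44.6%), the 5000s 17 of 51 (33.3%), the 6000s 55 of 207 (26.6%), the 7000s 70 of 180 (38.9%) and the 8000s 6 of 32 (18.8%). The 3000s held 47.5% of the reads and the 7000s 39.8%, the former with Mir3099, Mir3102 and Mir3475, the latter with Mir7689 and Mir7080. The 6000s held 8.63% and the 5000s 2.58%.

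Position in the host gene was not used to choose the genes. A hairpin was placed at an intron end where it came within 3 bases of it. The acceptor end of an intron held 103 of the 185 genes, all in protein-coding hosts, and another 8 genes filled an intron from end to end. Together these were 111 genes (60%), against 6 of the 278 earlier-numbered genes (2.16%). Among all late-numbered genes, 51.6% of the 215 at such places reached 5 reads and 21.9% of the 338 elsewhere. The latter share was 12.9% outside genes, 22.1% within an intron, 34.6% for exonic genes and 57.1% of 7 at a donor end. The genes from Mir6896 to Mir7094 make up much of the 215. Of the 201 genes in that range, 187 were at an acceptor end or filled an intron, 93 with at least 5 reads. No test was made of these shares.

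**Figure D2:**
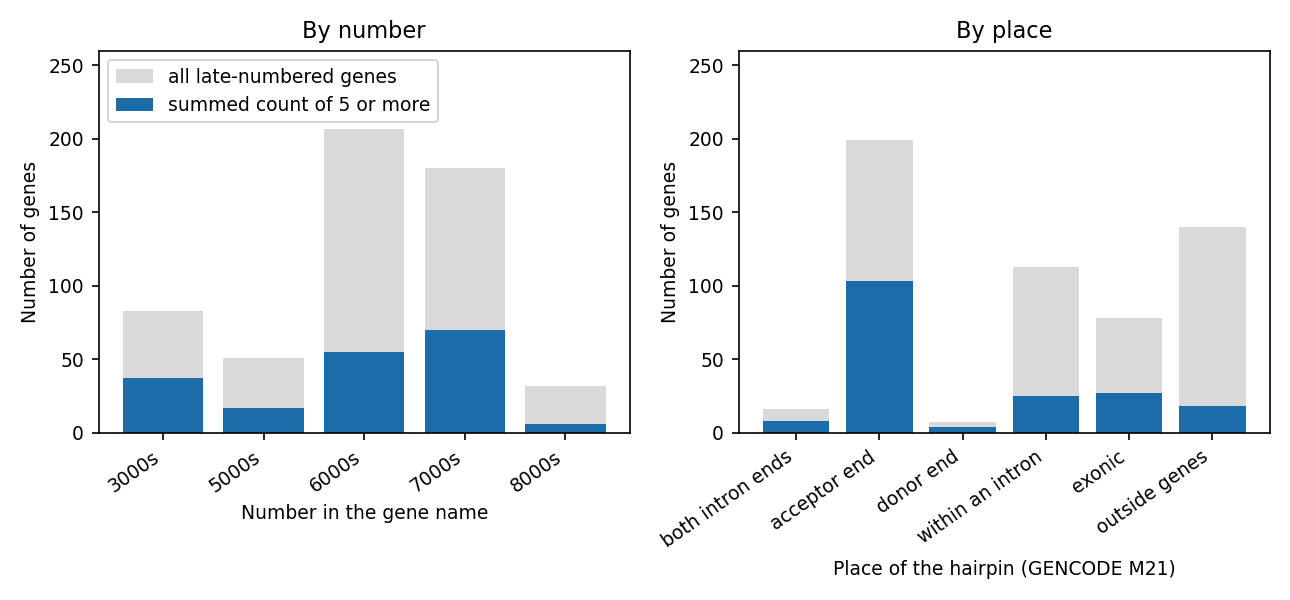
Number of late-numbered genes (grey, all; blue, those with a summed count of 5 or more) by the number in the name (left) and by the place of the hairpin in the annotation (right). The acceptor end holds 103 of the 185 genes with reads.

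Genes lying inside an intron, or running a few bases past its end, numbered 151. They include 11 counted as exonic, which overlap an exon of the same or of another transcript. Of the 151, 104 had their hairpin's 3′ end exactly at the intron's 3′ end. Another 7 lay within 1 to 3 bases of it. Of the 152 earlier-numbered genes placed in the same way, 5 were exactly at the intron's 3′ end, and 101 lay over 1000 bases away. Only 23 of the late-numbered genes lay so far.

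**Figure D3:**
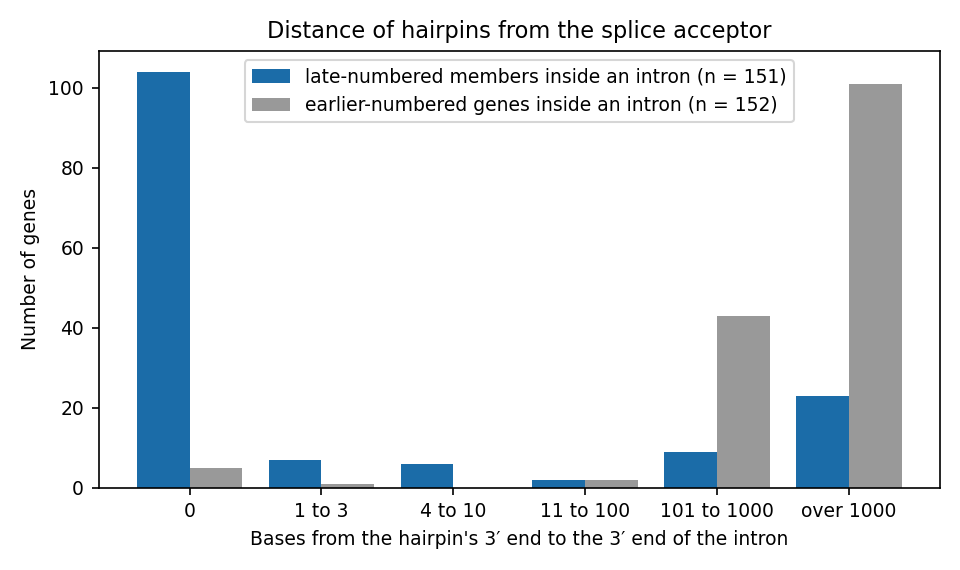
Number of genes by the distance from the hairpin's 3′ end to the 3′ end of its intron (bases), for late-numbered genes with reads (blue, n = 151) and earlier-numbered genes (grey, n = 152). The blue bar at 0 bases holds 104 genes and the grey one 5.

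The 8 whole-intron genes held 23.5% of the reads, mostly on Mir3102 and Mir7080. After Mir6944, Mir3547 in Baiap3 had 118 and 94 reads. The other 4, Mir7070, Mir6958, Mir7068 and Mir6970, had 4 to 20 reads in each library.

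The 103 acceptor-end genes held 10.2% of the reads, with a median of 14 reads over both libraries and at most 339. A read was seen in both libraries for 95 of them, and 30 had at least 10 reads in both. After Mir7047, Mir7044 in Rasgef1a had 48 and 133 reads. Mir6769b, in Unc13a, which primes synaptic vesicles for release, had 64 and 83. Mir3064, in the RNA helicase gene Ddx5, had 67 and 60.

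Hosts known from neurons and synapses are named here, picked after their values were seen. Mir6982, at an acceptor of the kinase gene Camk2a, had 57 and 62 reads, and Mir7220, deeper within an intron of the same gene, had 5 and 15. Mir7066, in Ncan, a proteoglycan of the brain matrix, had 36 and 27. Mir7055, in Slc17a7, the vesicular glutamate transporter, had 12 and 9, and Mir5617, at a donor end in Syn1, the synapsin gene, had 22 and 29. In bulk tissue, fewer cells of a type and less RNA per cell cannot be told apart for any of these levels.

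The 25 genes deeper within introns held 23.4% of the reads, most of it on Mir3099. Mir3093, in the noncoding gene Gm3764, lies 341 bases from Mir9-1 and had 117 and 130 reads against 33 and 62 for Mir9-1. The 27 exonic genes held 6.72%. Mir3078, exonic in Mir124a-1hg, lies 444 bases from Mir124a-1 and had 25 and 38 reads against 8 and 8. Hairpins of Mir9-1 and Mir124a-1 each share 20-base stretches with 2 other hairpins, and reads with several places were not assigned to genes. Both pairs therefore compare a hairpin with copies and one listed without copies, and their levels cannot be ranked from these counts.

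Mir3057, exonic in Apba3, had 85 and 118 reads, and Mir8114, exonic in Glul, the glutamine synthetase gene, had 25 and 38. Mir5121, Mir3069 and Mir6516 overlap the small RNA genes Snord33, Scarna13 and Gm26083, and Mir3068 overlaps a snoRNA gene of the same name, so their reads cannot be told apart from fragments of those RNAs. Mir5121 had 30 and 48 reads, Mir3069 15 and 46, and Mir6516 69 and 98. The 18 genes outside annotated genes held 35.6% of the reads, led by Mir7689 and Mir3475.

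Hairpins of the 185 genes had a median of 67 bases and 57.6% GC, against 84 bases and 50% for the earlier-numbered genes. The median folding energy was -28.6 against -36.9 kcal/mol, and per 100 bases -42.6 against -43.4. Acceptor-end hairpins were 56 to 105 bases long (median 65) with a median of -39.5 per 100 bases, and genes at no intron end had -46.2. Stretches of 20 bases shared with another hairpin were found in 6 genes (3.24%), against 69 (24.8%) of the earlier-numbered genes.

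The mature sequences, taken from the annotation and not from reads, differed by the place of the hairpin. An arm that reaches an intron end holds the splice site bases, so this difference follows largely from how places were assigned. Among 93 acceptor-end 3′ arms, the median content of C and U was 71.4%, 75 (80.6%) ended in AG and 73 ended at the last base of the hairpin, as the sequences of miR-7044-3p and miR-7066-3p show. Among 44 3′ arms of genes at no intron end, the median was 56.8% and 5 ended in AG. Earlier-numbered 3′ arms had 52.2%, with 21 of 234 (8.97%) ending in AG. Acceptor-end 5′ arms had a median of 43.5% G against 26.1%. Of the 8 whole-intron 5′ arms, 7 began with GU, as miR-7080-5p and miR-6944-5p do. The exception was the inner 5′ arm of Mir3102, which counts beside its outer one. Mir6970 had no listed mature sequence. As background, most introns begin with GU and end in a run of C and U followed by AG.

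The 315 mature sequences had 301 distinct seeds. A seed was shared by at least 2 of the genes in 13 cases, and 23 genes had a mature sequence with the seed of an earlier-numbered miRNA. Mir7689 and Mir5620 share the 5′ arm seed CGAGGCA, as these sequences show.
miR-7689-5p: cCGAGGCAgccuggcuuag
miR-5620-5p: aCGAGGCAggggcuuugacugug

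Between the libraries, 29 of the 130 genes with at least 10 summed reads differed by the read test (two-sided exact binomial, Benjamini-Hochberg over all genes tested, adjusted p at most 0.05), 22.3%, against 58% of all genes. This test compares 2 libraries, not conditions. Its p-values and ratio intervals cover counting error only and hold no term for the spread between samples. Of the 130 tested genes, 17 (13.1%) were called higher in replicate 2, against 31.6% of all genes, and 12 (9.23%) in replicate 1, against 26.4%. A call with at least a 2-fold ratio was made for 18 (13.8%), against 16.9% of all genes. By summed count, 14 of 84 genes with 10 to 49 reads were called (24.3% of all genes), 6 of 31 with 50 to 199 (36.8%) and 9 of 15 with 200 to 10000 (76.1%). The share called was below that of all genes at each depth, and no test was made of that. The median absolute log2 ratio (pseudocount 1 CPM) was 0.45 for the genes and 0.44 for all genes, taken over all depths. At 10 to 49 summed reads it was 0.543 against 0.664 for all genes. At 50 to 199 it was 0.334 against 0.531, and at 200 to 10000 it was 0.308 against 0.344. No test was made of these medians.

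Mir7689 was 1.34-fold higher in replicate 1 (95% interval 1.28 to 1.41, adjusted p = 1.7e-33, exact binomial). Mir3102 was 1.12-fold higher there. Mir7080 was 1.27-fold higher in replicate 2 (1.16 to 1.39), Mir3475 1.23-fold, Mir3059 1.36-fold, Mir7240 1.37-fold, Mir8112 1.53-fold and Mir6540 1.68-fold (1.39 to 2.04). Mir3099, Mir3068, Mir6944 and Mir7047 did not pass the test. With TMM scaling Mir3068 did (ratio of replicate 2 to replicate 1 0.796, adjusted p = 0.0439, exact binomial). Neither direction held for all of the most abundant genes.

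Among genes with fewer reads, Mir7044 was 2.23-fold higher in replicate 2 (1.59 to 3.17), Mir3069 2.46-fold (1.35 to 4.75), Mir7069 2.09-fold and Mir6934 2.81-fold. With TMM scaling Mir6934 was not called (2.75-fold, adjusted p = 0.0537, exact binomial). Mir6912 had 2 and 16 reads, Mir7687 2 and 15, Mir7037 1 and 15, and Mir3088 and Mir7031 each 1 and 11. Mir6939, at an acceptor of Akt1, had 0 and 14 reads. With the 0 set to a floor of 3 reads, Mir6939 was 3.75-fold higher in replicate 2. The exact interval of its ratio of replicate 2 to replicate 1 began lower, at 2.67-fold.

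Higher in replicate 1 were Mir6959 (40 and 18 reads, 2.77-fold, 1.55 to 5.13), Mir7000 (20 and 8), Mir6958 (18 and 8), Mir3058 and Mir5122 (each 21 and 11), Mir6918 (15 and 3), Mir7238 (10 and 3) and Mir5626 (8 and 2). A mature sequence of Mir7238 also occurs in transcripts of the protein-coding genes Fras1 and Tspan9, so its reads are uncertain. Of the 69 acceptor-end genes tested, 10 (14.5%) were called, against 58% of all genes, 7 higher in replicate 2 and 3 in replicate 1. Depth differs between these sets, so their shares cannot be compared directly. Acceptor-end genes had at most 339 summed reads. Among all genes, 24.3% were called at 10 to 49 summed reads, 36.8% at 50 to 199 and 76.1% at 200 to 10000. Shares by depth were not computed for acceptor-end genes. The differences named here rest on few reads, and their intervals are wide. That of Mir5626, replicate 1 over replicate 2, was 0.993 to 48.1 and included equal levels, although the test called the gene.

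**Figure D4:**
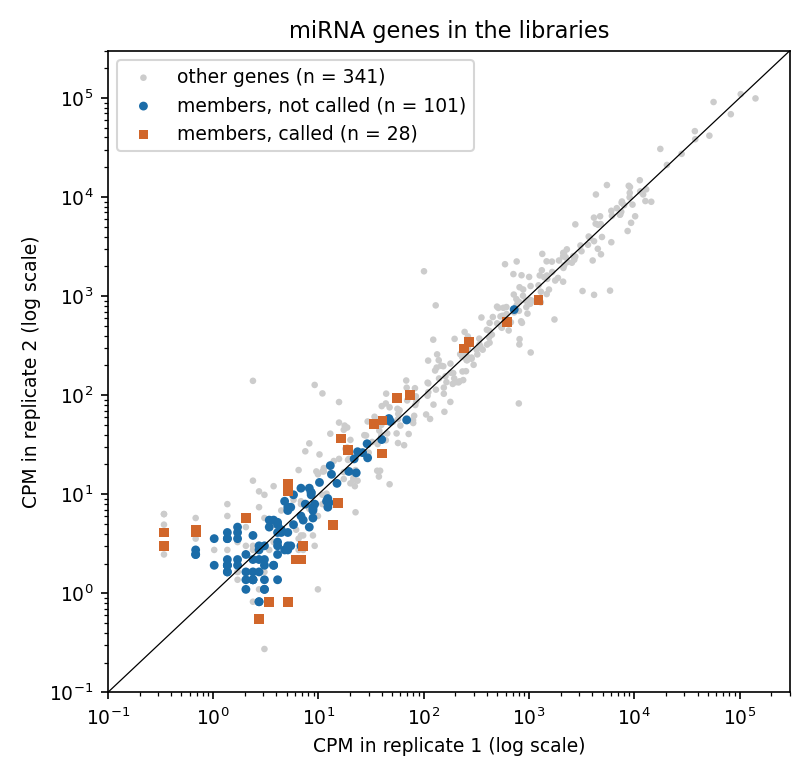
CPM of each gene in replicate 1 against replicate 2 (both log axes) for genes with at least 10 summed reads and a read in each library, with called late-numbered genes as orange squares, other late-numbered genes in blue and all other genes in grey. Points on the line have the same level in both libraries.

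**Figure D5:**
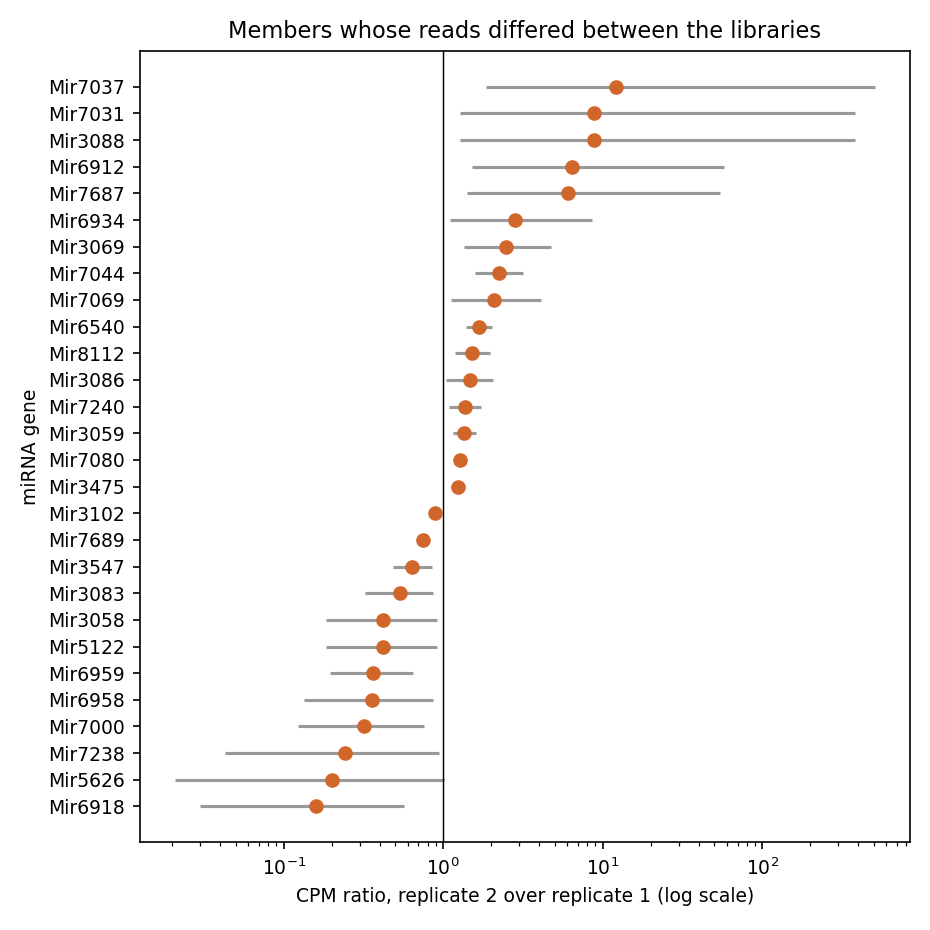
Ratio of replicate 2 to replicate 1 with its exact 95% interval (log axis) for the 28 called genes with a read in both libraries; the line marks equal levels. The intervals of genes with few reads reach 507-fold, while Mir7689 and Mir7080 are narrow.

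Marker miRNAs of other cells also differed between the libraries. The sensory and epithelial markers (3 genes, 2 with at least 10 reads in both libraries) summed to 24.6 and 308 CPM, with 7 and 509 reads on Mir182 and 27 and 463 on Mir183. The choroid plexus marker Mir204 stood at 593 and 2101 CPM. Red blood cell markers (3 genes) summed to 1176 and 340 CPM, the 2 oligodendrocyte markers to 5341 and 2527, and the 3 astrocyte markers to 15264 and 11124, of which Mir31 had 801 and 82.6. The microglia and leukocyte markers (3 genes) summed to 1545 and 1840 CPM. Of these, Mir150 (814 and 1230) and Mir142 (57.4 and 64.8) were higher in replicate 2 and Mir146 (674 and 545) in replicate 1. The 2 endothelial and mural markers summed to 19256 and 15370 CPM but went opposite ways. Mir126a had 14516 and 8969 CPM, and Mir143 had 4740 and 6401. All genes of these lists other than the sensory and epithelial one had at least 10 reads in both libraries.

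The 6 neuron markers summed to 25598 and 33891 CPM, but 3 of them had at least 10 reads in both libraries and these went both ways. Mir137 had 9112 and 12631 CPM and Mir128-1 4326 and 10622, while Mir132 had 12153 and 10636. The 3 Mir124a genes had 0 to 8 reads. The Mir124a-1 hairpin shares 20-base stretches with 2 other hairpins, and reads with several places were not assigned to genes. These low counts therefore do not measure the level of the miRNA. The part of these cells in the differences above was not tested.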

How the data were processed

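Small RNA of 2 hippocampus libraries was counted per miRNA gene. The deposited tables hold whole-number read counts, not normalized, in 3 unnamed columns (without strand, sense, antisense, read from their totals); assembly mm10 and GENCODE M21 are named in the notes deposited beside them, while aligner and counter were not given in the sources used here. Sense counts were used. The 4 rows per library that name no gene (69.5% and 65.3% of reads) stayed out of totals. Places, hosts and hairpins came from the GENCODE M21 annotation, mature sequences from RefSeq, folding energies from RNAfold (ViennaRNA 2.7.2). With 1 group of 2 libraries no condition could be tested, so reads were compared between the libraries by an exact binomial test (two-sided, conditioned on library totals) over the 474 genes with at least 10 summed reads. The test was tested on simulated data. The libraries are no duplicate deposit: chi-square per gene was 389 over all tested genes and 4.63 over the late-numbered ones.

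The genes and lists were chosen with earlier results of these data known. The text names the 12 most abundant genes, called genes with at least a 2-fold ratio, the 3 most abundant per place, genes with at least 4 antisense reads in both libraries, and genes at the minimum; further hosts and neighbours were named after their values were seen. Alternatives were TMM (edgeR 4.0.16) and DESeq2 1.42.0 scaling, other minimums and filters, counts without strand, a total without the most abundant gene, a pseudocount of 0.1 CPM, and leaving out either replicate or hairpins sharing 20 bases. Other tolerances at intron ends were added after seeing the data. Python 3.11.15, scipy 1.17.1 and R 4.3.3 were used.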

Additional observations from a re-analysis of the deposited data

Results flagged for a closer look

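Antisense reads, which no comparison above uses, reached at least 4 in both libraries at 4 of the 185 genes. At Mir3083 they were 26 in replicate 1 and 34 in replicate 2, beside 45 and 30 sense reads. At Mir3074-1, opposite Mir24-1, they were 38 and 59, beside 20 and 42. At Mir5620, opposite Clcn4, they were 8 and 19, beside 20 and 22. At Mir3107, opposite Mir486, they were 65 and 44, beside 6 and 3, and Mir486 itself has 65 and 44 sense reads. Mir3074-1 and Mir3107 each share a stretch of 20 bases with another hairpin, so their reads are uncertain. Both genes had 0 reads in each library in the counts without strand. A mature sequence of Mir3074-1 also occurs in Mir3074-2.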

How the results depend on the processing

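The number of genes depends on the minimum: a summed count of 1 gave 284 and of 20 gave 81, against 185. Leaving out either replicate gave 125 to 145 genes. The share of reads was 0.422%, 0.457% with counts without strand and 0.481% with a total without the most abundant gene, and lay between 0.415% and 0.430% with 1 replicate left out. Requiring 10 reads in each library left 73 of the 171 genes. The count of called genes was 27 to 30 under TMM, DESeq2, a total without the most abundant gene, no filter, counts without strand or no shared hairpins, and 15 of 54 with at least 40 summed reads (70.3% of all genes at that minimum). With no filter 23 of the 28 called genes were also called with the filter, and the share over all genes was 36.4%. Under TMM Mir3068 was called (ratio 0.796, adjusted p = 0.0439, exact binomial) and Mir6934 was not (2.75, 0.0537), and without strand Mir3083 was not (0.720, 0.0944); the cause was not tested. Intron-end tolerances of 0, 1 and 6 bases, chosen after seeing the data, gave 107, 113 and 117 genes at an intron end against 115. No paired analysis was possible because there is 1 group. The 55 genes under 10 summed reads entered the read test only with no filter, where 5 of them were called.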
